A study of Mus musculus with 4 samples.

Results

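The genes described here were 6 members of an oncofetal group, Hmga1, Hmga2, Igf2bp1, Igf2bp2, Igf2bp3 and Lin28b, out of 19353 genes with a row in a table of mRNA counts from mouse muscle stem cells (MuSCs). They were taken by gene name, as a group selected on its UMI counts in this same sham against overload contrast, so the members' own differences are given as a description with no test. The table held 4 libraries, each made from a tube of 100 sorted cells of the plantaris muscle. Both groups came from mice of the genotype Pax7-CreERT2:Rosa-YFP, in which tamoxifen activates a Cre recombinase driven by the MuSC gene Pax7 and so marks these cells, and their descendants, with YFP, the protein used for sorting. In the 2 overload libraries the cells came from plantaris muscle that carried extra load after the distal tendons of the neighbouring gastrocnemius and soleus muscles had been cut, and in the 2 sham libraries from muscle after a skin incision with the tendons intact. Per the study's methods, the cells were collected 4 days after surgery. Whether replicate libraries stand for separate mice is not given in the sources used here, so p-values below measure the spread between these libraries, which may be technical. Nor is it given whether sham and overload libraries share animals, although the study describes contralateral sham muscle for its muscle sections and myofibers.

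Each count is a unique molecular identifier (UMI), 1 for each mRNA molecule read near its poly(A) end, so levels of different genes can be set side by side without a correction for length. Depth was 269683 and 260488 UMIs in sham and 387955 and 483528 in overload. Values in CPM, counts scaled to a common library size, use TMM, a factor set from the bulk of genes, and 1 UMI was worth 4.35 and 4.53 CPM in the sham libraries but 2.60 and 2.03 CPM in the overload libraries. The markers of the labelled cell type were present, with Pax7 at 118 and 107 UMIs in sham and 108 and 137 in overload, Myf5 at 244, 168, 388 and 467 over the libraries in the same order, and Myod1 at 83, 87, 176 and 229. In CPM Pax7 was lower after overload, at 279 ± 2.39 against 499 ± 20.4 (SD, n = 2). Libraries were bulk, so a change in the share of some cells and a change in RNA per cell cannot be told apart.

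By background, HMGA1 and HMGA2 are small chromatin proteins that bind AT-rich DNA through AT-hooks, and the IGF2BP proteins bind mRNAs and affect their stability, transport and translation. Most of these genes are abundant in the embryo and low in adult tissues, and often active again in tumours, while Igf2bp2 stays expressed in many adult tissues. The microRNA let-7, which accumulates as tissues mature, represses many of them through sites in the 3′ UTR, and LIN28B blocks the maturation of let-7. In myoblasts, HMGA2 is known to raise Igf2bp2 transcription, and IGF2BP2 to bind the mRNAs of Myc, Sp1 and Igf1r.

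The sequence that joins the group is the let-7 seed, bases 2 to 8 of the microRNA, which 11 mature mouse entries in RefSeq (GRCm38.p6) shared. Printed here 5′ to 3′ with the seed in capitals are 4 of them, shown because they differ from one another only outside the seed.
let-7a: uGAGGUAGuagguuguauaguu
let-7d: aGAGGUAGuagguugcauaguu
let-7f: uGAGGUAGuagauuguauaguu
miR-98: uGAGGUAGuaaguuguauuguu

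Pairing with that seed, on the sense strand of the mRNA, needs the letters CTACCTC, and the longest annotated 3′ UTR of each member was searched for them (GENCODE M21, GRCm38). Hmga2 (ENSMUSG00000056758, minus strand, chr10:120361275-120476469, 6 exons) held 4 matches in a 3′ UTR of 3014 bases, all in exonic sequence and shown with the match in capitals because Hmga2 had the highest count of the group after overload. The match that begins at base 58 of the 3′ UTR is the only one of the 4 followed by an A, and the whole stretch printed for it lies at chr10:120364224-120364245. The stretches printed for the others lie at chr10:120362987-120363008, chr10:120362549-120362570 and chr10:120361691-120361712.
Hmga2 match 1: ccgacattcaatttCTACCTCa
Hmga2 match 2: cccactcctcaataCTACCTCt
Hmga2 match 3: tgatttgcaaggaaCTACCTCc
Hmga2 match 4: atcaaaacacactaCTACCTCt

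Igf2bp2 (ENSMUSG00000033581, minus strand, chr16:22059009-22163299) and Igf2bp3 (ENSMUSG00000029814, minus strand, chr6:49085223-49214957) each held 1 match, in the printed stretches at chr16:22059473-22059494 and chr6:49086787-49086808, and both matches were followed by an A. Hmga1 (ENSMUSG00000046711, plus strand, chr17:27556497-27563674) held 1 match without the A, in the printed stretch at chr17:27563278-27563299. These 3 single matches are printed for comparison with those of Hmga2.
Igf2bp2 match: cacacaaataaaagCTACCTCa
Igf2bp3 match: gcatttttactcaaCTACCTCa
Hmga1 match: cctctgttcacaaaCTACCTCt

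Igf2bp1 (ENSMUSG00000013415, minus strand, chr11:95957163-96005940) held 4 matches in a 3′ UTR of 6337 bases, 3 of them followed by an A. Lin28b (ENSMUSG00000063804, minus strand, chr10:45376620-45486395) also held 4, in 4445 bases, and 1 was followed by an A. The members were grouped as genes regulated by let-7, so a match in each is no independent finding. All 6 held at least 1, whereas 1452 of the 13864 genes with a 3′ UTR did so (10.5%), and 506 (3.65%) held the longer CTACCTCA, whose matches are included in the shorter letters. As many as 4 matches were present in 11 genes in all, among them Hmga2, Igf2bp1, Lin28b, Trim71, Hic2 and, with 8 matches, Nr6a1. A match is a run of letters and not a measured binding site, and mature microRNAs were not measured.

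Hmga2 was the member that differed most between the groups. No UMI of Hmga2 was counted in either sham library, and the overload libraries held 52 and 58. In CPM these counts were 135 and 117, a mean of 126 ± 12.6 (SD, n = 2), whereas 3 UMIs, taken here as the limit that a count of 0 allows, would be 13.1 and 13.6 CPM in the sham libraries. The overload libraries therefore lay above the sham libraries with no overlap, which was so for 37.5% of the tested genes, and Hmga2 was at least 18.8-fold higher after overload when the sham group was set to 3 UMIs over both libraries. The bound was 36.7-fold in UMIs per tube without scaling, and it was 9-fold and 9.33-fold without sham replicate 1 and without sham replicate 2, where the same 3 UMIs stood over 1 library. Within the overload libraries Hmga2 ranked above 86.0% and 83.2% of the genes detected. The gene contains Mir763 on its own strand, outside its exons, with 0, 0, 0 and 4 UMIs over sham 1, sham 2, overload 1 and overload 2, and it overlaps 2 antisense genes on the opposite strand. 1700006J14Rik shares 140 exonic bases with it and had 0, 0, 1 and 1 UMIs in the same order, and 9230105E05Rik shares none and had 0, 0, 3 and 1.

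Hmga1, the paralog of Hmga2, was close to the detection limit. Its counts were 2 and 0 UMIs in sham and 2 and 4 in overload, 8.71 and 0 CPM against 5.2 and 8.1 CPM. The groups overlapped, and the ratio of overload to sham, scaled by library, was 1.54 (exact 95% interval 0.275 to 15.6, which covers counting error only). Without sham replicate 2, the library at 0, the ratio was 0.763. Of the 50-base words in the last 500 bases of the Hmga1 transcript, 88.9% also occurred in its near copy Hmga1b, which had 1, 2, 1 and 2 UMIs, so the count of either gene is uncertain. Hmga1 also shares 102 exonic bases with AI413582 on the opposite strand, which had 1, 1, 7 and 11 UMIs. The other 5 members shared no such word with another gene.

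**Figure D1:**
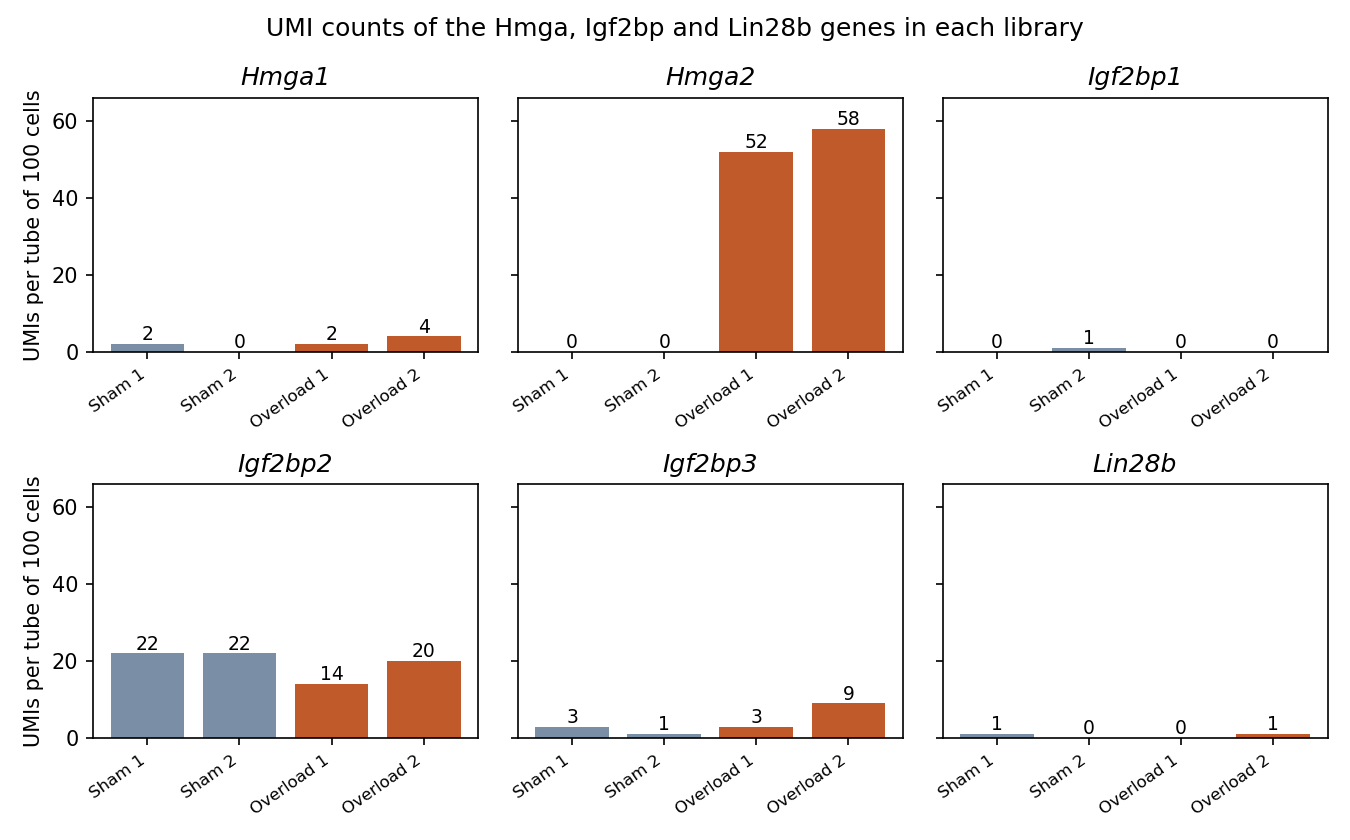
UMI counts of the 6 genes (y axis, UMIs per tube of 100 cells) in each of the 2 sham and 2 overload libraries (x axis), 1 bar per library with its count above. Hmga2 went from 0 and 0 to 52 and 58, Igf2bp2 was lower in overload, and the other 4 genes stayed at 9 UMIs or fewer in every library.

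Among the IGF2BP genes, Igf2bp2 was the only one with 20 or more UMIs in a library. It had 22 and 22 UMIs in the sham libraries and 14 and 20 in the larger overload libraries. Its level was 95.8 and 99.7 CPM in sham (97.7 ± 2.76, SD, n = 2) and 36.4 and 40.5 CPM in overload (38.5 ± 2.90). Both overload libraries thus lay below both sham libraries in CPM, as for 35.4% of the tested genes, and also in raw UMIs. The ratio of sham to overload was 2.52 (exact 95% interval 1.58 to 4.07, counting error only), and the fitted log2 fold change was -1.33 (SE 0.34). With raw UMIs per tube, without scaling, the log2 fold change was -0.37. Igf2bp2 stood above 77.2% and 77.7% of detected genes in sham and above 57.8% and 60.5% in overload.

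Igf2bp3 was counted in every library, at 3 and 1 UMIs in sham and 3 and 9 in overload, which is 13.1 and 4.53 CPM against 7.80 and 18.2 CPM. The groups overlapped, and the ratio of overload to sham was 1.54 (exact 95% interval 0.466 to 6.54, counting error only). A single library decided this ratio, which was 0.905 without overload replicate 2 and 2.94 without sham replicate 1. Its exons overlap those of Malsu1, a gene of mitochondrial ribosome assembly on the opposite strand, over 1529 bases, and Malsu1 had 11, 13, 12 and 18 UMIs. Whether the counting used strand is not given in the sources used here, so the reads of such overlapping pairs cannot be told apart.

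Igf2bp1 had 1 UMI in all, in sham replicate 2, and Lin28b had 1 in sham replicate 1 and 1 in overload replicate 2. Both were at or under 3 UMIs in each group, so no ratio is given and no difference was detectable at this depth. Lin28a, the paralog that also blocks let-7 maturation, was not analysed here.

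The makeup of the group's UMIs differed between sham and overload. They summed to 28 and 24 in sham and 71 and 92 in overload. Igf2bp2 made up 78.6% and 91.7% of that sum in the sham libraries and 19.7% and 21.7% in the overload libraries. Hmga2 made up none of it in sham and 73.2% and 63.0% in overload. The share of Igf2bp2 thus also fell because Hmga2 entered the sum. Igf2bp2 itself had 22 and 22 UMIs in sham and 14 and 20 in overload. Only Hmga2 and Igf2bp2 had enough UMIs for the fit across genes, and Hmga2 passed that filter through its overload libraries alone.

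Many other mRNAs also went uncounted in sham. In all, 3847 genes had no UMI in either sham library, and 23 of them had 20 or more in each overload library. Hmga2 was one of 3 with 50 or more in each, next to Tnnt2 (cardiac troponin T, 213 and 308 UMIs) and Spp1 (osteopontin, 179 and 165 UMIs), which are named for their counts. By Euclidean distance in log2 CPM over the 4 libraries, the tested genes nearest to Hmga2 were 1500015O10Rik (40 and 63 UMIs in overload, distance 0.381), Acot7, an acyl-CoA thioesterase (38 and 49, distance 0.492), and Aspm, a spindle protein (41 and 44, distance 0.505), and all 3 were at 0 in both sham libraries. Nearest to Igf2bp2 were Bicral (20, 21, 15 and 19 UMIs, distance 0.178), Stk19 (24, 22, 12 and 19, distance 0.234) and Tspyl2 (24, 22, 12 and 18, distance 0.263). With 4 libraries such closeness describes level and group difference and nothing finer.

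Other chromatin proteins of the wider high mobility group (HMG) class, which comprises the HMGB and HMGN families as well as HMGA, were given as a list. Across the transcriptome 3766 of 7228 tested genes (52.1%) passed an adjusted p below 0.1 in the quasi-likelihood test of edgeR (Benjamini-Hochberg adjustment over all tested genes), with 25.8% of tested genes higher (1868) and 26.3% lower (1898) after overload. That split was 2694 higher and 1351 lower with library sizes alone, and 4481 and 331 in UMIs per tube without scaling, so each direction below is relative to the bulk of genes. Of 6 tested HMGB and HMGN genes, 2 were called higher, none lower and 4 did not pass, with a median log2 fold change of 0.26 beside 0.05 for all genes. Both called genes, Hmgb3 and Hmgn3, had under 10 UMIs in each sham library and passed the filter on low counts through the overload libraries alone. Their differences are therefore given by the UMIs and not by a test. Hmgb3 had 5 and 3 UMIs in sham and 22 and 31 in overload (log2 fold change 1.74, SE 0.47), and its edgeR call did not hold in DESeq2 (adjusted p = 0.102). Hmgn3 had 5 and 5 against 19 and 21 (1.03, SE 0.45), and its edgeR call did not hold when any 1 library was left out. Hmgn1, the most abundant of the list, had 48 and 41 UMIs in sham and 101 and 92 in overload and did not pass (0.17, SE 0.22).

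The mRNAs known as let-7 targets are the next layer of the pathway, and they moved in both directions. Of 27 listed genes, 26 had UMIs and 18 could be tested, and 9 were higher, 6 lower and 3 not past the threshold, with a median log2 fold change of 0.19 beside 0.05 for all genes. The shares of all tested genes were 25.8% higher and 26.3% lower. Per tube without scaling 11 of the targets were higher and 3 lower, and in DESeq2 6 and 6. Rrm2 and Ccnd2, among the 9 higher, had under 10 UMIs in each sham library and passed the filter on low counts through the overload libraries. Their differences are therefore given by the UMIs, and the fits are no test of them. Rrm2, a subunit of ribonucleotide reductase, had 5 and 8 UMIs in sham and 130 and 162 in overload (log2 fold change 3.51, SE 0.29). Ccnd2 (cyclin D2) had 0 and 3 against 21 and 31 UMIs, and its fitted log2 fold change was 3.08 (SE 0.66) but 7.45 without sham replicate 2, the library with the 3 UMIs, and 2.06 without sham replicate 1. Both overload libraries lay above both sham libraries for Rrm2 and Ccnd2, as they did in CPM for 37.5% of all tested genes. The same held for the transcription factor E2f2 (10 and 3 against 51 and 83 UMIs, 2.38, SE 0.38) and the G1 kinase Cdk6 (20 and 15 against 155 and 143 UMIs, 2.14, SE 0.26). The log2 fold change of E2f2 was 3.42 without sham replicate 1 and 1.76 without sham replicate 2. With 3 UMIs in sham replicate 2, E2f2 passed the filter only through its overload libraries, so its fit is no test either.

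Smaller rises were seen for the D cyclin Ccnd1 and the small GTPase Nras, both fixed by name whatever their values. Ccnd1 had 49 and 40 UMIs in sham and 139 and 135 in overload (log2 fold change 0.67, SE 0.21, edgeR adjusted p = 0.0136). Nras had 38 and 49 against 115 and 140 UMIs (0.59, SE 0.20, edgeR adjusted p = 0.0225). Each of these calls rested on 1 sham library, with an edgeR adjusted p of 0.168 for Ccnd1 without sham replicate 2 and of 0.36 for Nras without sham replicate 1, and neither passed in DESeq2 (adjusted p of 0.103 and 0.172). Hras and Cdc34 also rose, with log2 fold changes of 1.73 and 0.88. The call of Cdc34 was lost without sham replicate 2 (edgeR adjusted p = 0.169) and without overload replicate 2 (edgeR adjusted p = 0.227).

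The let-7 target with the most UMIs in the sham libraries was Myc, the growth transcription factor, and it was lower after overload. Myc had 164 and 160 UMIs in sham and 99 and 120 in overload, and fell by 1.52 on the log2 scale (SE 0.16, edgeR adjusted p = 1.82e-06). Its log2 fold change was -0.83 under abundance-dependent offsets and -0.56 per tube without scaling. Igf1r, the receptor for insulin-like growth factors, had 130 and 126 against 119 and 141 UMIs and fell by 0.94 (SE 0.16), and Dicer1 had 31 and 30 against 25 and 31 and fell by 1.08 (SE 0.28). Raw UMIs of both overlapped between the groups, so their calls rested on the scaling, per tube without scaling the log2 fold changes were 0.02 and -0.12, and Igf1r did not pass with abundance-dependent offsets (edgeR adjusted p = 0.126). The other 3 lower genes, given after their values were seen, were Irs2, Fas and Tgfbr1, with log2 fold changes of -1.67, -1.66 and -1.24. Per tube without scaling those of Irs2 and Fas were -0.71 and -0.70. Raw UMIs of Tgfbr1 also overlapped (49 and 38 against 28 and 44), and its fold change per tube, in log2, was -0.27 (edgeR adjusted p = 0.507). A let-7 seed match was present in the 3′ UTR of 17 of the 26 listed targets with one annotated, among them Rrm2, E2f2, Nras and Igf1r, while Ccnd1, Ccnd2, Cdk6, Dicer1 and Myc held none of these letters.

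The mRNAs known to be bound by IGF2BP proteins were called about as often as all genes in each direction. Of 14 listed mRNAs 10 were tested, and 3 rose, 3 fell and 4 did not pass, with a median log2 fold change of 0.07, beside 25.8% higher and 26.3% lower among all tested genes. Per tube without scaling 6 were higher and 1 lower, with abundance-dependent offsets 5 and 1, and in DESeq2 1 and 3. The list shares Myc, Igf1r, Nras and Ccnd1 with the let-7 targets. H19, an imprinted noncoding RNA and the one that changed most, had 19 and 15 UMIs in sham and 366 and 458 in overload (log2 fold change 3.63, SE 0.22, edgeR adjusted p = 1.15e-08), with 4.43 under abundance-dependent offsets. Myc, Igf1r and the transcription factor Sp1, the 3 mRNAs named above as bound by IGF2BP2, were the ones that fell. A link between these falls and Igf2bp2 was not tested. Igf1r was at 0.02 per tube without scaling and did not pass with abundance-dependent offsets (edgeR adjusted p = 0.126). Sp1 had 73 and 88 against 75 and 118 UMIs and fell by 0.71 (SE 0.19), although its log2 fold change per tube without scaling was 0.26 and it did not pass with abundance-dependent offsets (edgeR adjusted p = 0.217). Igf2, the mRNA that gave the family its name, had 0 and 0 UMIs in sham and 1 and 1 in overload, which allows no comparison, and Actb, the most abundant of the list, had 562 and 440 against 1102 and 898 UMIs and a log2 fold change of 0.07 (SE 0.20). The value of Actb hung on single libraries and on the scaling, at -0.27 without overload replicate 1, 0.41 without overload replicate 2 and 1.38 with abundance-dependent offsets (edgeR adjusted p = 0.00308, 4.44e-07 and 1.75e-07).

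**Figure D2:**
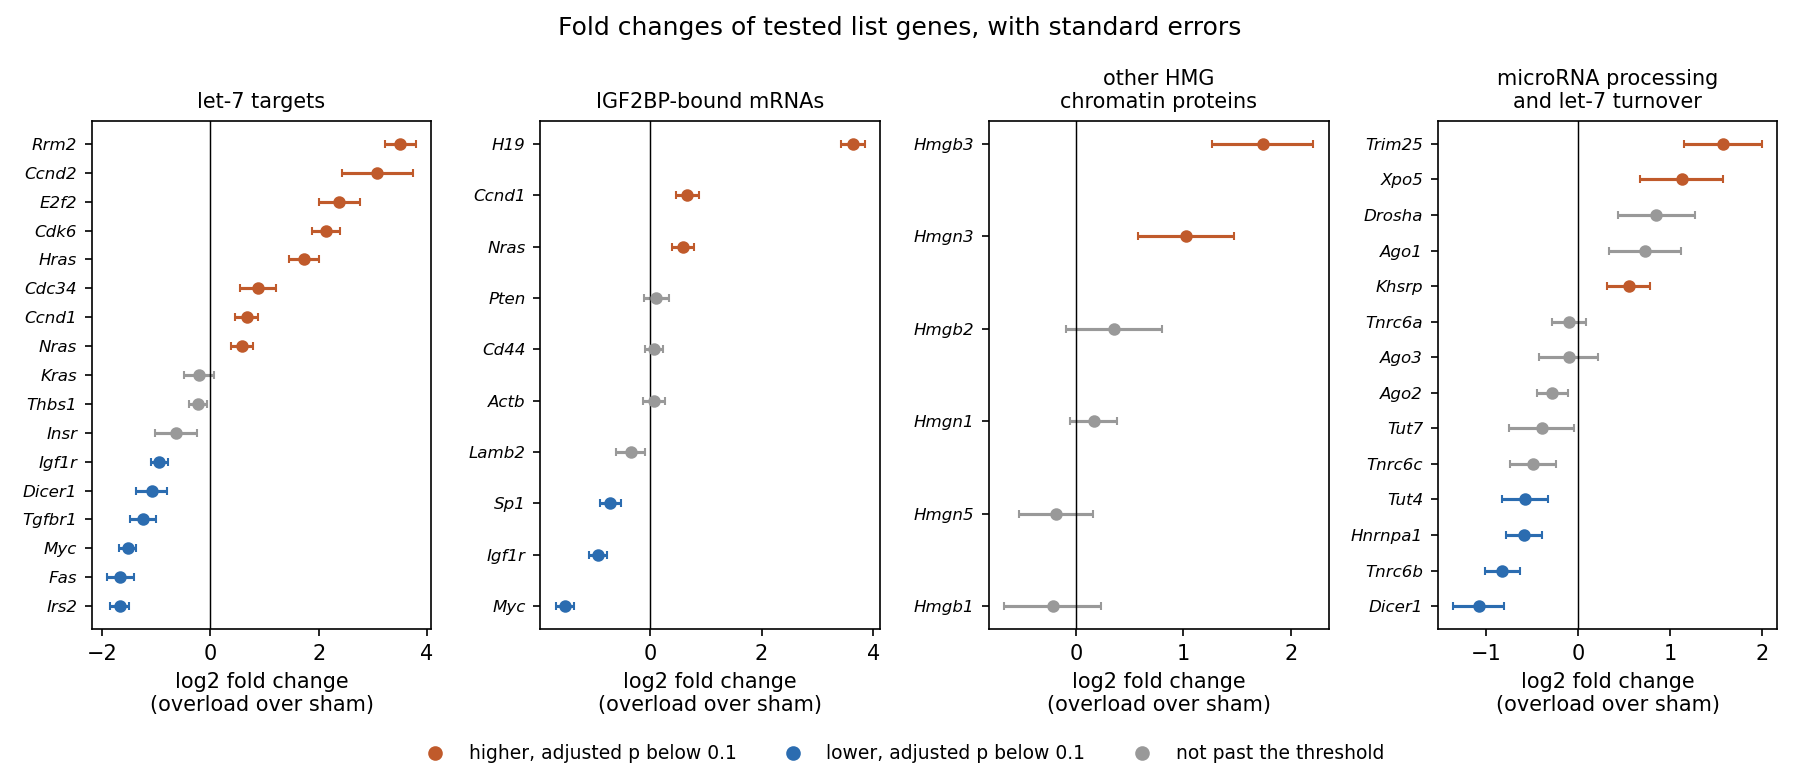
Log2 fold change after overload (x axis) with its standard error for the tested genes of 4 lists (rows), less 1 let-7 target that is not shown, coloured by the edgeR call. Rises and falls stand side by side among the let-7 targets (9 and 6 in the whole list) and the IGF2BP-bound mRNAs (3 and 3). Of 6 other HMG genes 2 were called higher, both of which passed the filter on low counts through the overload libraries alone.

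Among other genes known for fetal expression, H19 and Dlk1 rose, 2 of 3 tested, beside 25.8% of all tested genes. Dlk1, an imprinted transmembrane protein of the Notch ligand type, had 10 and 8 UMIs in sham and 46 and 51 in overload (log2 fold change 1.46, SE 0.34, edgeR adjusted p = 0.00241). Peg10, the third gene of that list that could be tested, did not pass (-0.15, SE 0.35). The remaining listed genes were sparse, with Trim71, a let-7 target and stem cell ubiquitin ligase, at 0, 2, 0 and 1 UMIs.

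Genes of microRNA processing and let-7 turnover were called about as often as all genes (52.1%), with 3 higher, 4 lower and 7 not past the threshold of 14 tested and a median log2 fold change of -0.19. With library sizes alone 5 were higher and 2 lower, and per tube 8 and 0. Trim25, a ubiquitin ligase and cofactor in let-7 turnover and 1 of the 3 higher, had 5 and 6 UMIs in sham and 24 and 41 in overload (log2 fold change 1.58, SE 0.43). Trim25 passed the filter on low counts through the overload libraries alone, so its difference is given by the UMIs and not by a test. Xpo5, the exporter of precursor microRNAs, had 16 and 3 against 29 and 53 UMIs (1.13, SE 0.45). With 3 UMIs in sham replicate 2, Xpo5 passed the filter on low counts only through its overload libraries. Its difference is therefore also given by the UMIs and not by a test. The log2 fold change of Xpo5 was 2.71 without sham replicate 1 and 0.37 without sham replicate 2. Its edgeR call was lost without sham replicate 2 and without overload replicate 2. Dicer1, which cuts the precursor, fell as given above, and Tnrc6b, a partner of Argonaute in silencing, had 79 and 70 against 80 and 83 UMIs and fell by 0.83 on the log2 scale (SE 0.19), with 0.13 per tube without scaling. The other 3 calls, Khsrp higher and Tut4 and Hnrnpa1 lower, were each lost without sham replicate 2, with edgeR adjusted p of 0.682, 0.251 and 0.203, and each also without 1 of the overload libraries. Ago2, the most abundant of the list, had 95 and 93 against 124 and 179 UMIs and did not pass (-0.28, SE 0.17).

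Transcripts that contain let-7 genes were counted as hosts of the microRNA. By coordinates, 8 genes of the table span a let-7 or miR-98 gene on the same strand, and 5 could be tested, of which 3 were lower (26.3% of all tested genes were). Huwe1, a ubiquitin ligase gene that holds Mir98 and Mirlet7f-2 in an intron, had 114 and 147 UMIs in sham and 80 and 94 in overload and fell by 1.55 on the log2 scale (SE 0.18, edgeR adjusted p = 5.86e-06). The log2 fold change of Huwe1 was -0.58 per tube without scaling and -0.97 with abundance-dependent offsets. Mir99ahg, the noncoding host of Mirlet7c-1, had 46 and 33 against 32 and 57 UMIs and fell by 0.80 (SE 0.25, edgeR adjusted p = 0.0169), a call lost without sham replicate 1 (edgeR adjusted p = 0.157) and without overload replicate 1 (edgeR adjusted p = 0.105). Mir99ahg also did not pass with library sizes alone (edgeR adjusted p = 0.101) or in DESeq2 (adjusted p = 0.145), and its log2 fold change per tube turned to 0.17. Spaca6, which spans Mirlet7e and was added from the coordinates, had 46 and 41 against 14 and 13 UMIs (log2 fold change -2.63, SE 0.30). At the depth of overload replicate 2, its 13 UMIs there fell short of the filter on low counts. Spaca6 was thus kept only through its sham libraries, and its difference is given by the UMIs and not by a test. Per tube without scaling the log2 fold change of Spaca6 was -1.68. The hosts 3110039I08Rik and Wdr82 did not pass (-0.46, SE 0.24, and -0.17, SE 0.22), and per tube without scaling their log2 fold changes were 0.50 and 0.79, the latter past the threshold (edgeR adjusted p = 0.0381). A host's poly(A) mRNA is not the microRNA, and only the hosts were counted.

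Over the whole transcriptome, genes with a let-7 seed match in the 3′ UTR were set beside genes without one. Of 699 tested genes with a match, Hmga2 and Igf2bp2 among them, 23.6% rose and 26.8% fell, with a median log2 fold change of -0.00. Of 6150 without a match, 27.3% rose and 24.0% fell, with a median of 0.10. The 239 genes whose match was followed by an A had a median of -0.02, and the 89 genes with 2 or more matches had 27.0% higher and 29.2% lower. Genes with a match had longer 3′ UTRs (median 2797 bases against 1238), and the difference between the medians, -0.10, was 0.01 among genes with a 3′ UTR of at least 1000 bases.

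**Figure D3:**
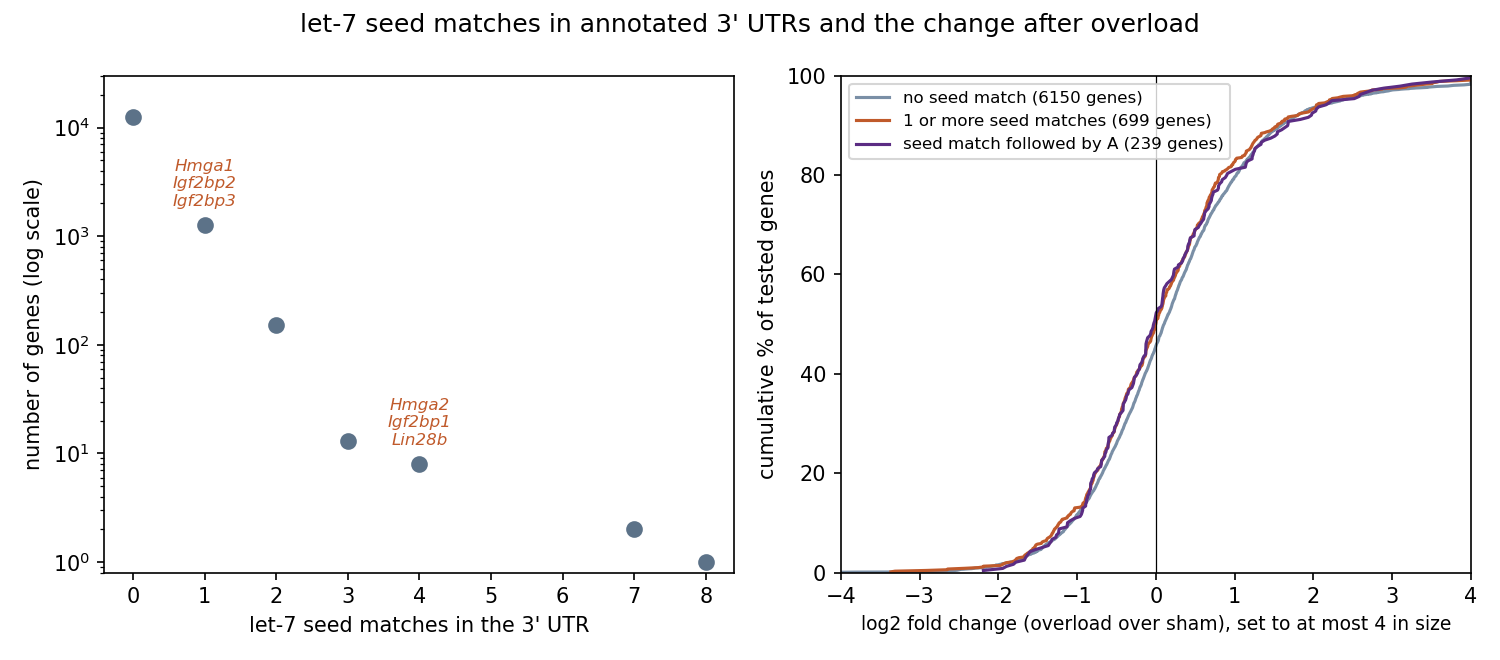
Left, number of genes (y axis, log scale) by the number of let-7 seed matches in the longest annotated 3′ UTR (x axis), with the 6 members named above their counts. Right, cumulative percent of tested genes (y axis) against the log2 fold change after overload (x axis) for genes without a match (6150), with a match (699) and with a match followed by an A (239), whose curves run close together.

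Hmga2 did not move alone, and genes of proliferation and of other cell types changed in the same libraries. The 12 cell cycle genes summed to 86 and 75 UMIs in sham and 683 and 842 in overload, and 11 were called higher, beside 25.8% of all tested genes. Mki67, Top2a, Cdk1, Ccna2, Ccnb1, Mcm2, Mcm3, Mcm5 and Mcm6 had under 10 UMIs in each sham library. They passed the filter on low counts through the overload libraries alone, so their differences are given by the UMIs and not by a test. Mcm7 rose by 1.56 on the log2 scale (SE 0.29). Mcm4 was at 0.76 (SE 0.30) but at 0.40 without sham replicate 2, and it did not pass in DESeq2 (adjusted p = 0.276). Cdk1, the mitotic kinase, had 0 and 1 against 85 and 114 UMIs, and Ccnb1, its cyclin, 0 and 0 against 37 and 47. Ccna2 (cyclin A2) had 1 and 0 against 70 and 84 UMIs, and the proliferation marker Mki67 had 0 and 2 against 70 and 53. Pcna, the gene of the list that did not pass, had 40 and 34 against 48 and 63 UMIs (log2 fold change -0.38, SE 0.22).

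Few markers of leukocytes and vessel cells had enough UMIs for a test. The 10 leukocyte markers summed to 2 and 5 UMIs in sham and 69 and 162 in overload. Of these markers 8 were at 0 in both sham libraries, with Lyz2, the most abundant over the overload libraries, at 17 and 38 UMIs there and Ptprc at 0, 1, 1 and 4. Lyz2 and Cd74 (0 and 0 against 17 and 27 UMIs) were the only leukocyte markers tested, having passed the filter on low counts through the overload libraries alone, so their difference is given by the UMIs and not by a test. The 6 mural cell markers summed to 173 and 152 UMIs in sham and 459 and 664 in overload, led by Acta2 (115, 109, 356 and 493), with Rgs5 at 13, 4, 38 and 86 and Myh11 at 0, 0, 0 and 3. Of the 3 mural markers tested, Acta2 and Rgs5 rose (log2 fold changes 0.95 and 1.88) and Tagln fell by 0.61 (SE 0.24, edgeR adjusted p = 0.0453), beside 25.8% higher and 26.3% lower among all tested genes. Rgs5 was at 2.89 without sham replicate 1 and 1.26 without sham replicate 2, and Acta2 at 1.89 with abundance-dependent offsets. With 4 UMIs in sham replicate 2, Rgs5 passed the filter only through its overload libraries, so its fit is no test of it. Tagln had 41 and 36 against 49 and 49 UMIs, its log2 fold change per tube was 0.35, and its call was lost without sham replicate 1 and without overload replicate 2 (edgeR adjusted p = 0.162 and 0.341). Endothelial markers, none of which could be tested, summed to 9, 4, 33 and 32 UMIs. Cdh5 was the most abundant in overload (3, 1, 14 and 11 over the libraries) and Pecam1 in sham (4, 2, 11 and 7), with Cldn5 at 0, 0, 1 and 1.

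Fibroblast markers summed to 735 and 676 UMIs in sham and 826 and 992 in overload. They were led in the overload libraries by Col1a1 (206, 181, 364 and 377 UMIs over the 4 libraries) and in the sham libraries by Gsn (304, 269, 214 and 312). Pdgfra, which defines these cells, was at 0, 0, 2 and 0. Ly6a had 1 and 0 against 22 and 41 UMIs and passed the filter on low counts through the overload libraries alone. Its difference is therefore given by the UMIs and not by a test. The fitted log2 fold change of Ly6a rested on 1 sham UMI, at 7.71 without sham replicate 1 and 3.89 without sham replicate 2. Of the 5 fibroblast markers in the fit, Dpt, Gsn and Dcn fell by 1.43, 1.09 and 0.38 on the log2 scale, beside 26.3% lower among all tested genes. Dpt had 131 and 126 against 82 and 104 UMIs, while the call of Gsn was lost per tube (-0.12) and with abundance-dependent offsets (-0.09), and Dcn turned to 0.58 and 0.16 there and did not pass in DESeq2 (adjusted p = 0.352). The call of Dcn was also lost without sham replicate 1, without sham replicate 2 and without overload replicate 2 (edgeR adjusted p = 0.138, 0.384 and 0.333). Col1a1 did not pass (-0.01, SE 0.16), and it was at 0.94 per tube and 0.96 with abundance-dependent offsets. Schwann cell markers summed to 77, 72, 96 and 115 UMIs, nearly all from Pmp22 (75, 70, 88 and 111), which fell by 0.51 on the log2 scale but was at 0.46 per tube. Its call was lost without sham replicate 1 and without overload replicate 2 (edgeR adjusted p = 0.131 and 0.103). The 11 myogenic markers summed to 1538 and 1281 UMIs in sham and 2321 and 2678 in overload, and 4 rose, 4 fell and 3 did not pass, beside 25.8% higher and 26.3% lower among all tested genes. Myog, the transcription factor of differentiating myoblasts, rose (52 and 49 against 246 and 282 UMIs, log2 fold change 1.43, SE 0.18, with a larger value under abundance-dependent offsets). The fusion protein gene Mymk had 20 and 7 against 141 and 183 UMIs (2.61, SE 0.28, but 3.49 without sham replicate 1). With 7 UMIs in sham replicate 2, Mymk passed the filter on low counts only through its overload libraries. Its difference is therefore given by the UMIs and not by a test. Calcr, a marker of resting MuSCs, fell by 2.60 (37 and 57 against 15 and 15, SE 0.32). Pax7, Vcam1 and Sdc4 fell by 0.84, 0.90 and 0.91 on the log2 scale, and these 3 calls were lost per tube without scaling (0.12, 0.06 and 0.03) and with abundance-dependent offsets (-0.25, -0.05 and 0.17). Sdc4 was the most abundant of the list in sham (422 and 284 UMIs), while in overload Myf5 (388 and 467) stood above Sdc4 (375 and 345). The part of proliferation or of other cells in the Hmga2 and Igf2bp2 differences was not tested. In the overload libraries the leukocyte sum was 179 and 328 CPM and the mural sum 1190 and 1340 CPM, beside 135 and 117 CPM of Hmga2. In the sham libraries these sums were 8.71 and 22.7 CPM and 753 and 689 CPM, beside 0 CPM of Hmga2. The sums run over 10 and 6 genes, and Acta2 alone was at 962 ± 51.4 CPM in overload (SD, n = 2).

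**Figure D4:**
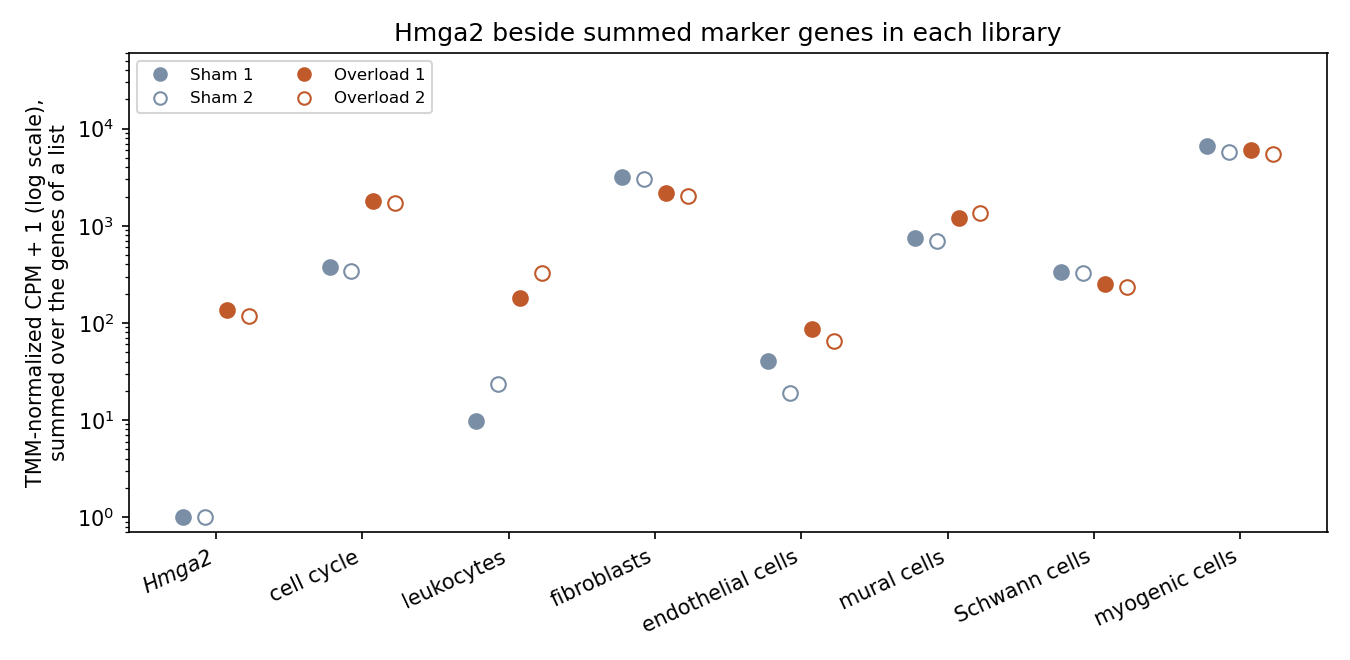
Hmga2 and the summed markers of 7 gene lists (x axis) in each library, as TMM-normalized CPM plus 1 on a log scale (y axis), with sham in blue and overload in orange and 1 point per library. Hmga2, cell cycle, leukocyte, endothelial and mural sums were higher in both overload libraries, while fibroblast and Schwann sums were lower in CPM, although higher in raw UMIs.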

How the data were processed

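Cells were sorted by YFP in tubes of 100, and libraries were made by CEL-Seq2, which tags the poly(A) end of each mRNA with a UMI. The submitters' processing notes name UMI-tools 1.0.0, HISAT2 2.1.0, featureCounts 1.6.4 and DESeq2 1.22.2 with GRCm38, and the strand setting and the treatment of reads with several matches are not given in the sources used here. The deposited values are UMI counts per gene, not normalized, in 1 table of 19353 genes, and every library was used.

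Genes were kept by filterByExpr (minimum count 10, minimum total 15), which left 7228, scaled by TMM and fitted in edgeR 4.0.16 (R 4.3.3) with the quasi-likelihood test, 2 sham against 2 overload libraries, with Benjamini-Hochberg adjustment over all tested genes, a threshold of 0.1 and a prior count of 0.125. The study used the same groups and threshold with DESeq2. The common coefficient of variation was 9.5%. Within groups the chi-square of the counts per degree of freedom was 1.36 (sham) and 1.57 (overload), and between groups 7.61 to 9.31, where counting error alone gives about 1. The fit was also run on simulated data with the same spread for all genes and few genes changed. Those settings differ from these data, so that run does not give the error rate here. Members were not tested. For genes under the filter, ratios of summed counts carry exact 95% Clopper-Pearson intervals, and the floor is 3 counts over a group. Intervals and floors cover counting error only.

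The members and lists were chosen with earlier results of these data known. Named were the 6 members, from each list up to 4 genes past the threshold, by size of change, whose mean reached 10 UMIs per library, Myc, Nras, Ccnd1 and Igf2 whatever their values (Lin28a, chosen likewise, was not analysed here), the 3 tested genes nearest to each member with 20 or more UMIs in all, and the most abundant gene of each marker list. Single values of 2 listed genes are not reported here. Genes outside this rule were named after their values were seen. Seed matches were searched in the longest 3′ UTR per gene in GENCODE M21 transcripts, and mature microRNAs came from RefSeq. Alternatives were library sizes alone, UMIs per tube, abundance-dependent offsets, DESeq2 1.42.0, other filters, prior count and threshold, a replicate block, and leaving out each library.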

Additional observations from a re-analysis of the deposited data

How the results depend on the processing

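Without TMM the median log2 fold change of all genes shifted from 0.05 to 0.33 and, in UMIs per tube, to 1.01, and the calls were 2694 higher and 1351 lower with library sizes alone and 4481 higher and 331 lower per tube, against 1868 and 1898. With genes split by abundance into 10 bins, the median was 0.53 in the lowest bin and -0.74 in the highest. DESeq2 called 2182 genes (967 higher, 1215 lower). The bound of Hmga2 was 22.8 with library sizes alone, 36.7 per tube, 16.9 with abundance offsets and 9 to 20.9 with 1 library left out, and the log2 fold change of Igf2bp2 was -1.05, -0.37, -1.51 and -1.39 to -1.24, with -1.25 without a filter and -1.21 with a prior count of 2. With a mean of at least 20 UMIs, Igf2bp2 was not tested. Igf2bp2 stayed lower under every alternative that gave a value. For Hmga2 the direction could not turn, since 0 sham UMIs were set to 3 in every alternative. The ratios of Hmga1 and Igf2bp3 were 3 per tube.

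Calls among other HMG genes, 2 in the reported fit, were 4 per tube, 1 with abundance offsets, without a filter and at an adjusted p below 0.05, 0 in DESeq2 (1 of 7 at an unadjusted p below 0.05), 0 of 2 in edgeR with a mean of at least 20 UMIs (0 at an unadjusted p below 0.05), and 1 with any library left out (lowest 1, highest 1). With a library left out, the lone library of its group is assumed to vary like the other group. Calls in microRNA processing, 7 in the reported fit, were 3 in DESeq2, 4 at an adjusted p below 0.05 and 3 to 7 with 1 library left out. Calls among the 2 listed let-7 hosts, Huwe1 and Mir99ahg, both called in the reported fit, were 1 with library sizes alone, per tube and in DESeq2, and 1 to 2 with 1 library left out. The log2 fold change of Spaca6 was negative in each of the 14 alternatives run on it, which are no test of it. The summed higher and lower calls of the let-7 target, IGF2BP-bound, fetal and cell cycle lists stayed within 1.5 times under every alternative run, though the split between directions of the let-7 target and IGF2BP-bound lists moved with the scaling and with DESeq2. Among genes with a 3′ UTR of at least 1000 bases, an alternative chosen after seeing the data, the median difference of let-7 site genes was 0.0051.

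Libraries that share a replicate number did not deviate together (r = -0.0341 across genes), and with 2 pairs the numbers were not taken as pairing. With a replicate block 3670 genes were called, and 1 other HMG gene. At 1 UMI for 2.03 to 4.53 CPM, genes with a few UMIs per tube, 4 of the 6 members, cannot show differences of a few fold.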
